A study of Mus musculus with 6 samples.

Results

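Open chromatin was described around 10 genes of the Hippo pathway in nuclei of mouse hearts at postnatal day 1: Yap1, Wwtr1, Tead1, Tead2, Tead3, Tead4, Lats1, Lats2, Stk3 and Sav1. The genes were listed by name, without use of any measured value, although earlier results of these data were known at that time. All 10 were found among 21938 protein-coding genes of GENCODE M21 on mm10. Every peak of 6 OMNI-ATAC-Seq libraries that overlapped a gene body or the 10 kb on either side was taken. Peaks of different libraries that shared at least 1 base were merged into 1 region, which gave 179 regions at the 10 genes of 169881 regions in the whole series.

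OMNI-ATAC-Seq uses a transposase that inserts sequencing adapters into accessible DNA, so that reads pile up where chromatin is open. Each library was made from 50000 nuclei, purified from whole P1 hearts through a 2.2 M sucrose cushion. The 2 Input libraries hold such nuclei from wildtype hearts with no further selection, although the sample type of Input replicate 2 does not repeat the word WT. The 2 Myc libraries hold Nkx2-5+ nuclei from Nkx2-5 Cre/+; R26R Sun1-Myc-Egfp/+ hearts, pulled down by MAN-IP, a magnetic immunoprecipitation of nuclei, with an antibody to the Myc tag of the nuclear membrane protein SUN1. The group name therefore stands for the tag and not for the Myc gene. The 2 PCM1 libraries hold nuclei of wildtype hearts after MAN-IP with an antibody to PCM1, a protein found at the nuclear surface of cardiomyocytes. The Nkx2-5 lineage can also form smooth muscle and endothelial cells, and the dense sucrose cushion was chosen in the study to keep cardiomyocyte nuclei and leave out others. Nuclei of Myc hearts differ from the others in genotype as well as in selection, and the 2 cannot be told apart.

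The Hippo pathway is a kinase cascade that limits organ growth. The kinases STK3 and STK4 act with the scaffold SAV1 to activate the kinases LATS1 and LATS2, which phosphorylate the coactivators YAP1 and TAZ (the product of Wwtr1) and keep them out of the nucleus. Unphosphorylated YAP1 and TAZ enter the nucleus and bind the TEAD transcription factors, which recognise the letters GGAATG, also known from muscle genes as the M-CAT element in its reverse orientation CATTCC. In the heart the pathway is known for restraining cardiomyocyte proliferation around birth, and TEAD factors also bind promoters of contractile genes.

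The strongest promoter regions of 7 of the 10 genes held GGAATG on either strand within the 300 bases around their strongest summit, the position where most reads pile up. They belonged to Yap1, Wwtr1, Tead1, Tead3, Tead4, Lats2 and Sav1. Of the 15954 protein-coding genes with a promoter peak in any library, 11.2% held the motif in the same window. Tead1, Tead3 and Tead4 each held 3 copies, and 25 of the 15954 genes, or 0.157%, held 3 or more. In a window of 200 bases the motif was found at 5 of the 10 genes and at 7.72% of all genes, and the genes lost were Wwtr1 and Tead3. The stretches below are shown because they hold the motif next to the starts of a coactivator or TEAD gene, or of Sav1. Each is the plus strand of mm10, cut where annotated untranslated sequence begins, with matches in capitals, where CATTCC is the same motif read from the other strand.

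Tead3 promoter, chr17:28350818-28350993: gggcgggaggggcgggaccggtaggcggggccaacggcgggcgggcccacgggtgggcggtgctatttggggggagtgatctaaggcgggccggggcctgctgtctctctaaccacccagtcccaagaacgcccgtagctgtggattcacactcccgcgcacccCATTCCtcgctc

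Yap1 promoter, chr9:8004597-8004803: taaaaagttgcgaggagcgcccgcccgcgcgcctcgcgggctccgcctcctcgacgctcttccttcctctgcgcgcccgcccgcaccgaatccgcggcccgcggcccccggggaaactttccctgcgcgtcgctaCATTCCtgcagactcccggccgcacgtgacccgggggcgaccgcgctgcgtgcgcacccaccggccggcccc

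Wwtr1 promoter, chr3:57575911-57576074: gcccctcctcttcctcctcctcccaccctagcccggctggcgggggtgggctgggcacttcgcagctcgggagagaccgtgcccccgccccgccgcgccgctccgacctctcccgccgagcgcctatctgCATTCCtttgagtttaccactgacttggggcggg

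Sav1 promoter, chr12:69987003-69987260: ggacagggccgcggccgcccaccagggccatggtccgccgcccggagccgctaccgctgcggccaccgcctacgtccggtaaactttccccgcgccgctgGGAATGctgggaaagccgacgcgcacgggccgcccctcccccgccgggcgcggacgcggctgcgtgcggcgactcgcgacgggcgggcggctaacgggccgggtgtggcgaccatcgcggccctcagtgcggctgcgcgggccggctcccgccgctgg

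The Tead3 stretch shows 1 of the 3 copies in its window, since the other copies fall in annotated untranslated sequence. All 3 copies at Tead4 and the copy at Lats2 lie there too and are not printed. A match is a stretch of letters and does not show that a TEAD protein was bound. The 4 windows are rich in G and C, from 66.3% at Wwtr1 to 78.7% at Sav1.

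Over all 179 regions, 52 held GGAATG in their 300-base window (29.1%), against 20.3% of the regions of the whole series. The difference was widest close to transcription start sites (TSSs). Of 25 regions within 1 kb of the TSS of any gene, 9 held the motif (36.0%), against 15.01% of such regions in the series. Of these 9, 7 were the promoter regions named above, so this count largely repeats that of the promoters. The others lay 35.7 kb inside Tead1 and 24.2 kb inside Tead4. Among the 154 distal regions, those farther than 1 kb from every TSS, the shares were 27.9% and 21.5%. Of the 42 distal regions called in all 6 libraries, 10 held it (23.8%), against 22.8% of such regions in the series.

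Over all 179 regions, motifs of other factors were not more frequent than in the series. AGATAA, bound by GATA factors, was found in 16.2% of the regions and in 17.1% of the series. The MEF2 element, bound by MEF2 factors, was found in 6.15% and 6.29%, and TGANTCA, bound by AP-1, in 10.6% and 11.9%. These 3 motifs were also searched on both strands, and none of them contains GGAATG. In the regions within 1 kb of a TSS, AP-1 letters were in 0 of 25, against 7.53% of such regions in the series. Those of GATA and MEF2 factors were in 1 of 25 each, against 9.85% and 4.11%. In the 42 distal regions called in all 6 libraries, AP-1 letters were in 8 (19.0%), against 12.6% of such regions in the series, while those of GATA factors were in 11.9% against 18.1% and those of MEF2 factors in 4.76% against 8.19%. Regions of 1 gene share their neighbourhood and are not independent, so these shares are given as descriptions.

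Promoters were compared by rank, since the files hold peaks and no read counts. Each peak was ranked within its own library by the authors' −log10 q-value at the summit, where 100 is the strongest peak of that library and 0 stands for no peak. A promoter value is the rank percentile of the strongest peak within 1 kb of any annotated TSS of the gene. The genome-wide background that the peak lists imply, a measure of depth, was 4.38 times as high in the deepest library (Input replicate 1) as in the shallowest (PCM1 replicate 2). The numbers of peaks ran from 75336 in Input replicate 2 to 131500 in Input replicate 1. A weak peak in the deep library takes up ranks that have no counterpart in the others, so percentiles were also computed over the strongest 75336 peaks of each library, called the equal number below.

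All 10 genes had a promoter peak in all 6 libraries, as did 61.1% of protein-coding genes. Over the 10 genes, the median promoter percentile of Input nuclei was 93.3 and 87.9, that of Myc nuclei 94.3 and 94.0, and that of PCM1 nuclei 89.4 and 89.5. The medians over all genes with a promoter peak were 91.9, 85.1, 91.8, 91.7, 84.8 and 84.2 in the same order. In every library the median of the 10 genes thus lay above the median of all genes with a promoter peak, by 1.47 to 5.33 percentile points. Not every gene did so. Tead2 and Tead3 lay below the median of all genes in every library, and Yap1, Sav1, Tead4 and Lats1 in some. The sets also differ, since the larger one needed a promoter peak in any library and the 10 genes had one in all 6.

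The kinase gene Stk3, which encodes MST2, and the coactivator gene Wwtr1 had the strongest promoters. Stk3 stood at 99.5, 99.2, 97.9, 98.5, 99.4 and 99.2 in the libraries Input 1, Input 2, Myc 1, Myc 2, PCM1 1 and PCM1 2, an order kept in all lists of 6 values that follow. Wwtr1 stood at 99.4, 99.1, 98.0, 99.3, 99.5 and 98.3. Their means were 98.9 ± 0.62 and 98.9 ± 0.64 (SD, n = 6), and neither was higher throughout, with Stk3 above Wwtr1 in 3 of 6 libraries.

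The Stk3 peak lay at an internal start, 23.1 kb inside the outermost annotated start of its transcripts, and its pileup was between 199 and 240 reads in the 5 libraries for which it could be solved. That of Lats2 also lay inside the gene, 12.2 kb from the outermost start, next to the start of Gm49361. The peaks of Yap1, Tead1 and Lats1 were shared with the starts of Gm45494, 2310014F06Rik and Pcmt1. An ATAC peak does not say to which of 2 neighbouring starts it belongs.

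Yap1, the coactivator for which the pathway is best known, stood lower than its relative Wwtr1 in all 6 libraries, at 92.8, 87.2, 93.7, 93.8, 83.5 and 84.0. Both Myc libraries were above the other 4 and both PCM1 libraries below. Its peak held 290 reads at the summit in Input replicate 1, and 76, 154, 150, 49 and 51 reads in the others. Divided by each library's genome-wide background, these pileups were 73.3, 74.2, 107, 104, 50.2 and 56.5 times the background, with the same order of groups as the ranks.

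The scaffold gene Sav1 showed a similar order, at 91.4, 82.8, 94.9, 94.3, 85.1 and 81.7, with both Myc libraries above the other 4. Lats2, a kinase gene, had Myc replicates at 96.5 and 96.4 and the other libraries at 94.6, 89.7, 88.7 and 94.4. Lats1, the other LATS kinase gene, varied less, at 93.9, 87.6, 91.5, 90.4, 93.3 and 91.4, with no group apart over all peaks ranked by q-value.

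The TEAD genes differed widely among themselves, with means from 69.1 for Tead3 to 94.6 for Tead1. Tead1 stood at 98.1, 96.0, 97.4, 97.3, 90.0 and 88.8, with both PCM1 libraries below the other 4. Tead4 was the steadiest of the 4, at 92.0, 88.2, 90.0, 89.6, 91.8 and 90.3. Tead2 stood at 80.5, 71.1, 79.6, 86.1, 66.8 and 50.7, again with PCM1 lowest. Tead3 had the weakest promoter, at 87.6, 67.8, 70.1, 74.5, 69.3 and 45.01, and its spread between replicates of 1 group reached 24.2 points in PCM1.

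**Figure D1:**
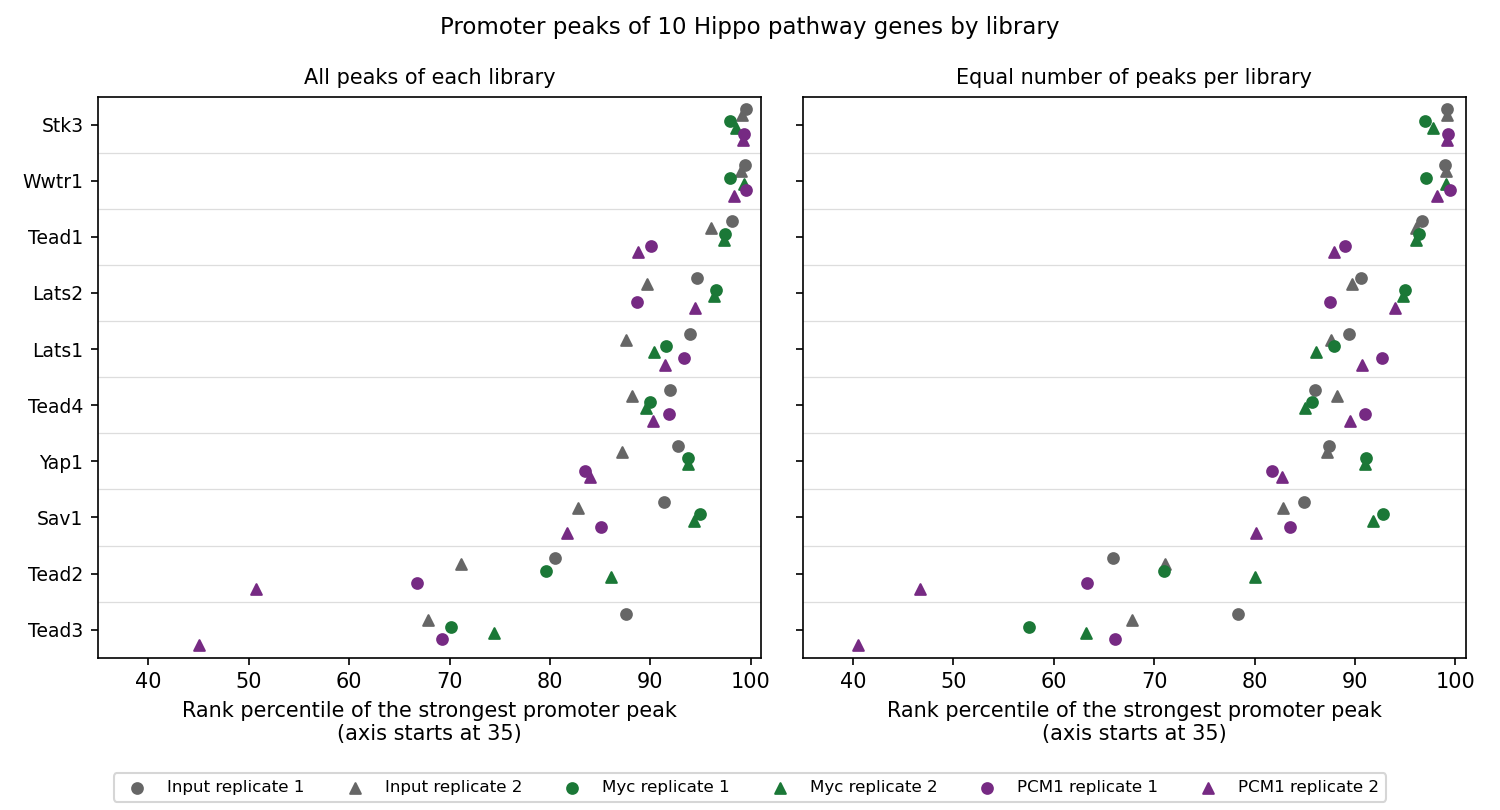
Rank percentile of the strongest promoter peak (horizontal, starting at 35) for the 10 genes (vertical, ordered by mean), over all peaks of each library on the left and over the strongest 75336 peaks on the right. Each symbol is 1 library, coloured by group and shaped by replicate. Stk3 and Wwtr1 lie near 99 in every library, Tead2 and Tead3 scatter below 90, and the PCM1 symbols of Tead1, Yap1 and Tead2 lie left of the other 4 in both panels.

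The order of the promoters was tested for each of 45 pairs of genes by flipping the signs of their 6 differences, a two-sided exact permutation test. At n = 6 libraries the smallest exact p it can give is 0.03125, which adjusted by Benjamini-Hochberg over the 45 pairs came to 0.0439. Of the 45 pairs, 32 reached that value (exact permutation test), and in each of these the same gene was higher in 6 of 6 libraries. Of the 9 pairs of neighbours in the order of means, only Wwtr1 over Tead1, by 4.32 ± 4.11 points (SD, n = 6), and Sav1 over Tead2, by 15.9 ± 8.17, passed. The other 7 neighbours did not pass. Lats1 over Tead4 was the closest of these, by 1.05 ± 0.90 points (SD, n = 6) and in 5 of 6 libraries, with an adjusted p of 0.085 by the exact permutation test. With the equal number, also 32 pairs passed and 2 of the 9 neighbours. The test treats the 6 libraries alike and as independent, and says nothing of the groups. By the paper's scheme, the input was an aliquot of the cushion-purified nuclei, and the rest went to MAN-IP. Input and PCM1 libraries, both from wildtype hearts, may therefore share hearts, and which of them did is not stated. With fewer independent preparations the smallest p would be above 0.03125, so the 32 pairs rest on taking the 6 libraries as independent.

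Groups were compared by counting genes for which both libraries of a group ranked above, or both below, the other 4. With 2 libraries against 4, the smallest one-sided exact p is 0.0667, so no single gene can pass a test at 0.05 and the share of all genes meeting the same condition is given instead. Both Myc libraries ranked above the other 4 at 3 promoters, those of Yap1, Lats2 and Sav1, a condition met by 27.3% of the genes with a promoter peak. Both PCM1 libraries ranked below at 3, those of Yap1, Tead1 and Tead2, against 30.1% of genes. The counts among 10 genes were therefore near the share over all genes. Myc ranked below the others at 1 promoter, that of Stk3 (4.23% of genes). No promoter had both Input libraries above (4.94%) or below (1.23%) the rest, or both PCM1 libraries above (2.09%). Without Input replicate 1 the promoters with Myc above numbered 6. Those with PCM1 below numbered 6 without Input replicate 2 and 5 without PCM1 replicate 1, and those with Myc below numbered 2 without Input replicate 2 or Myc replicate 2. With a library left out the condition is easier to meet, and no share over all genes is given for these settings.

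With the equal number, the same 3 promoters had Myc above (32.1% of genes) and the same 3 had PCM1 below (27.2%). The further calls were Tead3 with Input above (7.91%), Tead4 and Lats1 with PCM1 above (8.99%), and Tead4 with Myc below, beside Stk3 (9.74%). None had Input below (7.6%). Peaks were also ranked by fold enrichment over the local background in place of the q-value. Sav1 alone then had Myc above, and Tead1 and Tead2 had PCM1 below. Stk3, Wwtr1 and Lats1 had Myc below, and Lats1 had PCM1 above. No share over all genes is given for this ranking. The calls of Sav1, Tead1, Tead2 and Stk3 were thus made by all 3 rankings and those of Yap1 and Lats2 were not.

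Promoters of cell type markers were counted in the same way. Of 12 cardiomyocyte markers, such as Myh6 and Tnnt2, 11 had a promoter peak in all 6 libraries. At 8 of the 12 both Myc libraries stood below the other 4, against the 4.23% of all genes, and the list's summed percentile was 960 and 996 in Myc against 1015 to 1107 in the other libraries. Of 12 fibroblast markers, 4 had PCM1 below, near the 30.1% of all genes, with sums of 488 and 461 in PCM1 against 531 to 777 elsewhere, and with the equal number 2 had. Of 12 endothelial markers, 5 had Myc above, beside 27.3% of all genes, with sums of 910 and 929 in Myc against 626 to 903 elsewhere. Of 12 epicardial markers, 4 had PCM1 below, again near the share of all genes, with sums of 434 and 377 against 456 to 672. Under the equal number 2 had, and the PCM1 sums of 382 and 344 overlapped those of Myc, 388 and 376. Gpm6a had no promoter peak in any library. Of 12 immune markers, 7 had none in any library (Ptprc, Csf1r, Cd68, Adgre1, Fcgr1, Cx3cr1 and Itgam), and the sums were 27.3 to 150. The part of cell composition in the promoter ranks of the Hippo genes was not tested, and in these bulk libraries a smaller number of cells of 1 type and less open chromatin per cell cannot be told apart.

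The 179 regions were unevenly spread over the genes. Tead1, which spans 227 kb, had 52 regions, Wwtr1 30, Stk3 22, Yap1 and Tead4 17 each, Lats2 14, Lats1 10, Sav1 7, Tead3 6 and Tead2 4. Per 10 kb of window, the mean number of peaks per library was highest at Tead3 (1.28), Tead1 (1.24), Wwtr1 (1.21) and Lats2 (1.20), and lowest at Stk3 (0.345), the longest of the genes with 303 kb. The median over the 10 genes was 1.01 peaks per 10 kb, against 0.637 over all protein-coding genes. Stk3 thus combined one of the 2 strongest promoters with the sparsest peaks.

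The number of peaks at the 10 genes followed the number in the library, with 145, 81, 108, 121, 89 and 88 peaks. With the equal number these became 87, 81, 81, 82, 84 and 83, a range of 81 to 87. Of the 53 regions called in 1 library only, 23 came from Input replicate 1 and 13 from Myc replicate 2. A region without a peak in a library is not shown to be closed there, since the lists hold only what passed the threshold at that depth. The region 7.7 kb upstream of Tead4 stood at 65.0 to 79.2 in 5 libraries, PCM1 replicate 1 among them. It was missing from PCM1 replicate 2, the library with the lowest genome-wide background (0.903). The part of depth in which regions were called was not tested.

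Of the 179 regions, 57 were called in all 6 libraries (31.8%, against 28.8% of regions in the series). With the equal number, 53 of 130 were (40.8%, against 37.0% of 118246). Replicates of Myc shared 86 of the 134 regions called in either, those of PCM1 68 of 104 and those of Input 75 of 147. Of 16 regions within 1 kb of a TSS of the gene itself, 11 were called in all 6 libraries, as were 4 of 9 regions at the TSS of another gene. Of 154 distal regions 42 were (27.3%), beside 31857 of 139092 distal regions in the series. No share over the series is given for the overlap of replicates or for the 2 classes at a TSS. Summits of the 179 regions lay mostly in introns (135 regions), then downstream (17) or upstream (14) of the gene, in untranslated sequence (7), noncoding exons (4) and coding exons (2).

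**Figure D2:**
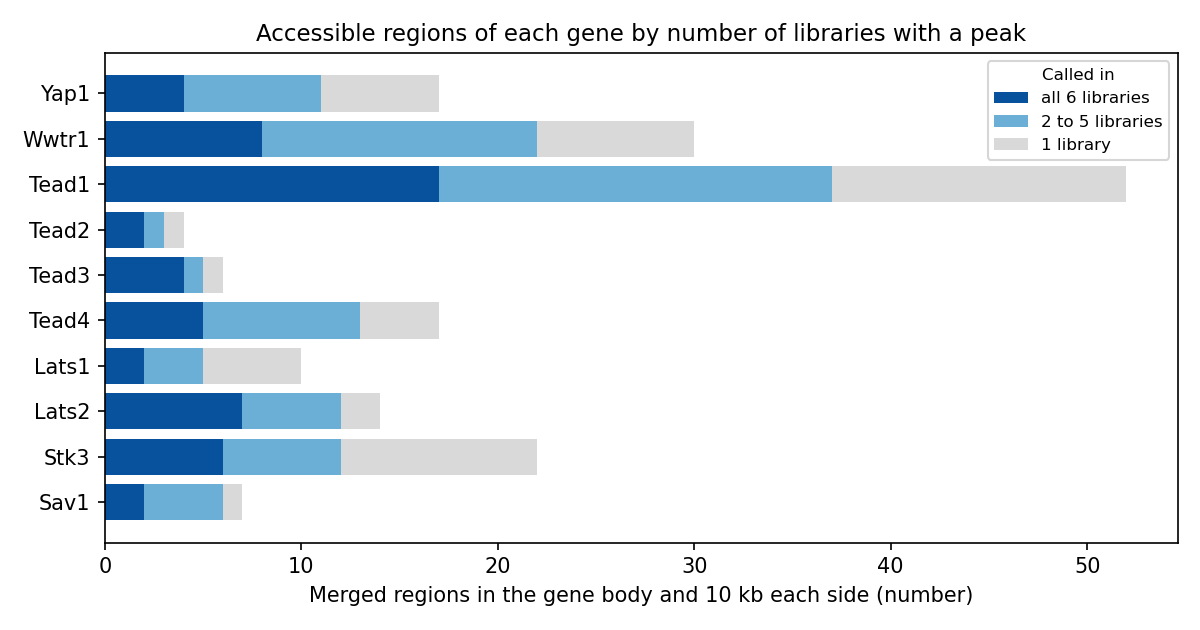
Number of merged regions (horizontal) in the body of each gene and 10 kb on either side, divided by how many of the 6 libraries had a peak there. Tead1 has the most regions in all 6 libraries (17), followed by Wwtr1 (8) and Lats2 (7), while 10 of the 22 regions of Stk3 were called in 1 library.

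The strongest distal regions were at Tead3 and Stk3. The Tead3 region, chr17:28340651-28341576, had its summit in an intron 9.5 kb inside the gene, at 93.1, 90.2, 91.7, 89.4, 87.3 and 88.3. It ranked above the promoter peak of Tead3 in all 6 libraries, the reverse of the order at the other 9 genes. The 300 bases around its summit are shown because this region, and not the annotated promoter, ranked highest among the Tead3 regions that are not at the start of another gene. The region at the start of Rpl10a, +22.3 kb and downstream of Tead3, had a mean of 91.4 against 90.0 here. They hold no GGAATG and run into coding sequence at their right end.

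Tead3 intronic region, chr17:28341133-28341432: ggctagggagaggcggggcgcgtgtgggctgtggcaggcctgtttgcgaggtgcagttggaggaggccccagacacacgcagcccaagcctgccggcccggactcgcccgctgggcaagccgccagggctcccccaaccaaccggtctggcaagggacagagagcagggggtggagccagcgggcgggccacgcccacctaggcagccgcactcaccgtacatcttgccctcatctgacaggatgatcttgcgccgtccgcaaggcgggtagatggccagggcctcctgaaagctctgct

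The Stk3 region, chr15:34879179-34879965, lay in an intron 299.4 kb from the outermost start, close to the 3′ end of the gene, at 92.4, 86.2, 92.4, 90.1, 89.6 and 89.9. No group stood apart there. At Tead1, the region chr7:112696914-112698038 in an intron at +17.9 kb reached 88.7, 70.7, 89.7, 91.2, 82.8 and 82.8, with both Myc libraries above the other 4. The distance and its sign follow the direction of transcription from the outermost annotated start of the gene.

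The strongest distal regions of Yap1 and Wwtr1 lay at similar depths inside introns. That of Yap1, chr9:7960330-7960759 at +44.0 kb, stood at 84.7, 73.8, 75.7, 71.8, 59.7 and 79.5. That of Wwtr1, chr3:57533017-57533412 at +42.7 kb, stood at 85.3, 74.3, 64.4, 72.8, 84.2 and 77.4, with both Myc libraries lowest. At Lats2 it was chr14:57737047-57737568 at +21.1 kb, at Tead4 chr6:128285767-128286306 at +14.9 kb, both intronic, and at Sav1 chr12:69966118-69966764 at +20.7 kb, in a coding exon. These 3 were called in all 6 libraries, at percentiles between 66.4 and 85.9.

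Lats1 and Tead2 had no strong distal region. That of Lats1, chr10:7673718-7674025, lay 7.4 kb upstream and was called in Input replicate 1 (42.2) and both Myc libraries (57.6 and 40.6) only. That of Tead2 at +18.1 kb was called in Input replicate 1 alone, at 13.1. The remaining Tead2 regions lay at its own promoter or at the starts of Cd37 and Slc6a16, and the strongest region in the Lats1 window outside its promoter lay at the start of Katna1.

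**Figure D3:**
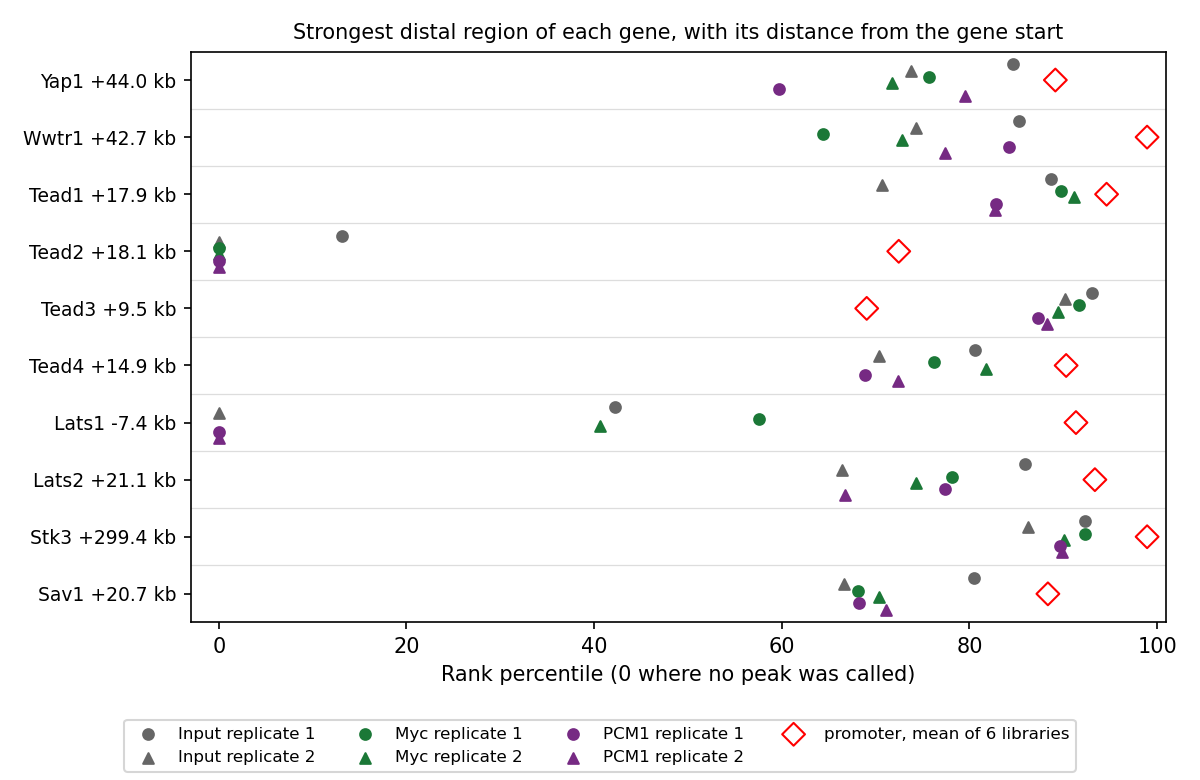
Rank percentile (horizontal, 0 where no peak was called) of the strongest distal region of each gene (vertical, with its distance from the gene start). Filled symbols are the 6 libraries and open red diamonds the mean promoter percentile. At Tead3 alone the symbols lie right of the diamond, and at Tead2 and Lats1 several libraries had no peak.

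Across all 179 regions, both Myc libraries ranked above the other 4 at 14 (10.8% of the regions of the series, 7.82% here), both PCM1 libraries at 5 (1.76% in the series, 2.79% here) and both Input libraries at 4 (4.75%). Both PCM1 libraries ranked below the other 4 at 15 (9.96%), both Myc libraries at 7 (2.83%) and both Input libraries at 1 (0.611%). A library of few peaks has many values of 0, and with the equal number the counts of 130 regions were 13 for Myc above (12.6%), 11 for PCM1 above (10.3%) and 8 for Input above (6.25%). Those for libraries below were 19 for Myc (9.2%), 9 for PCM1 (8.95%) and 5 for Input (3.57%). Over all peaks, these counts changed when a library was left out. The condition is then easier to meet, and no share over all regions is given for these settings. Without Input replicate 2 both directions grew, to 92 regions with Input above and 38 with PCM1 below, and without Input replicate 1 there were 34 with Myc above, 14 with PCM1 above and 23 with Input below. Without 1 of the 2 Myc replicates 41 or 32 regions had Myc above, and without 1 of the 2 PCM1 replicates 16 or 15 had PCM1 above and 24 or 23 had it below.

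The count of regions with Myc below was thus the one farthest from its share in the series under the equal number, 14.6% against 9.2%, and 9 of the 19 lay in Tead1. Under all peaks, 4 of the 7 were in Tead1. The 36 regions of Tead1 in this ranking share 1 gene, so their count is 1 locus and not 9 independent results. Without Input replicate 2, the count over all peaks was 14 in place of 7, without Myc replicate 2 it was 13, and without PCM1 replicate 2 it was 11. Shares over all regions are not given for these settings.

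Tead1 regions showed different orders of the groups along 1 gene. They were chosen after their values were seen. At chr7:112720072-112720638, +41.0 kb, both Myc libraries stood at 64.9 and 67.6 and the others between 81.0 and 84.1. At chr7:112872484-112873364, +193.7 kb, the values were 62.9, 34.9, 33.5, 27.4, 65.5 and 65.5, with Myc lowest and PCM1 highest. At chr7:112826032-112826846, +146.9 kb, PCM1 was highest, at 87.3 and 85.4 against 75.5 to 82.2 elsewhere.

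Over all peaks, both PCM1 libraries were above the other 4 at 3 introns of Tead1 and below at 3 introns and the promoter. The introns with PCM1 below were at +109.2 kb, with 33.9 and 30.1 in PCM1 against 58.2 to 75.5 elsewhere, at +144.6 kb, and at +186.6 kb, with 29.5 and 51.0 against 51.1 to 79.6. The first and the last of these were below with the equal number too. No difference between these regions was tested. The +146.9 kb region is shown because it had PCM1 above the others in both rankings and held 2 copies of the TEAD motif.

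Tead1 intronic region, chr7:112826090-112826389: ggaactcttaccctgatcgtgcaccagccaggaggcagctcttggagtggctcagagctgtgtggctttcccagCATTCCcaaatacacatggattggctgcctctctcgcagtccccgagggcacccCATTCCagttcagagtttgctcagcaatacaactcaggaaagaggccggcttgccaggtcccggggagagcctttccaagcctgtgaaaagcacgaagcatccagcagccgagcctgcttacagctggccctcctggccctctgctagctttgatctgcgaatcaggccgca

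Wwtr1 also had introns with different orders of the groups, likewise chosen after their values were seen. At chr3:57487232-57487759, +88.3 kb, the values were 80.03, 57.9, 81.8, 80.8, 43.1 and 52.6, with Myc above and PCM1 below the rest in both rankings. At chr3:57530216-57530627, +45.5 kb, they were 78.7, 67.8, 35.5, 42.6, 43.1 and 35.1, with Input above both selected groups. Downstream of Lats2, at chr14:57679970-57680518, +78.2 kb, Myc stood at 88.2 and 87.9 against 39.0 to 76.9 elsewhere.

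**Figure D4:**
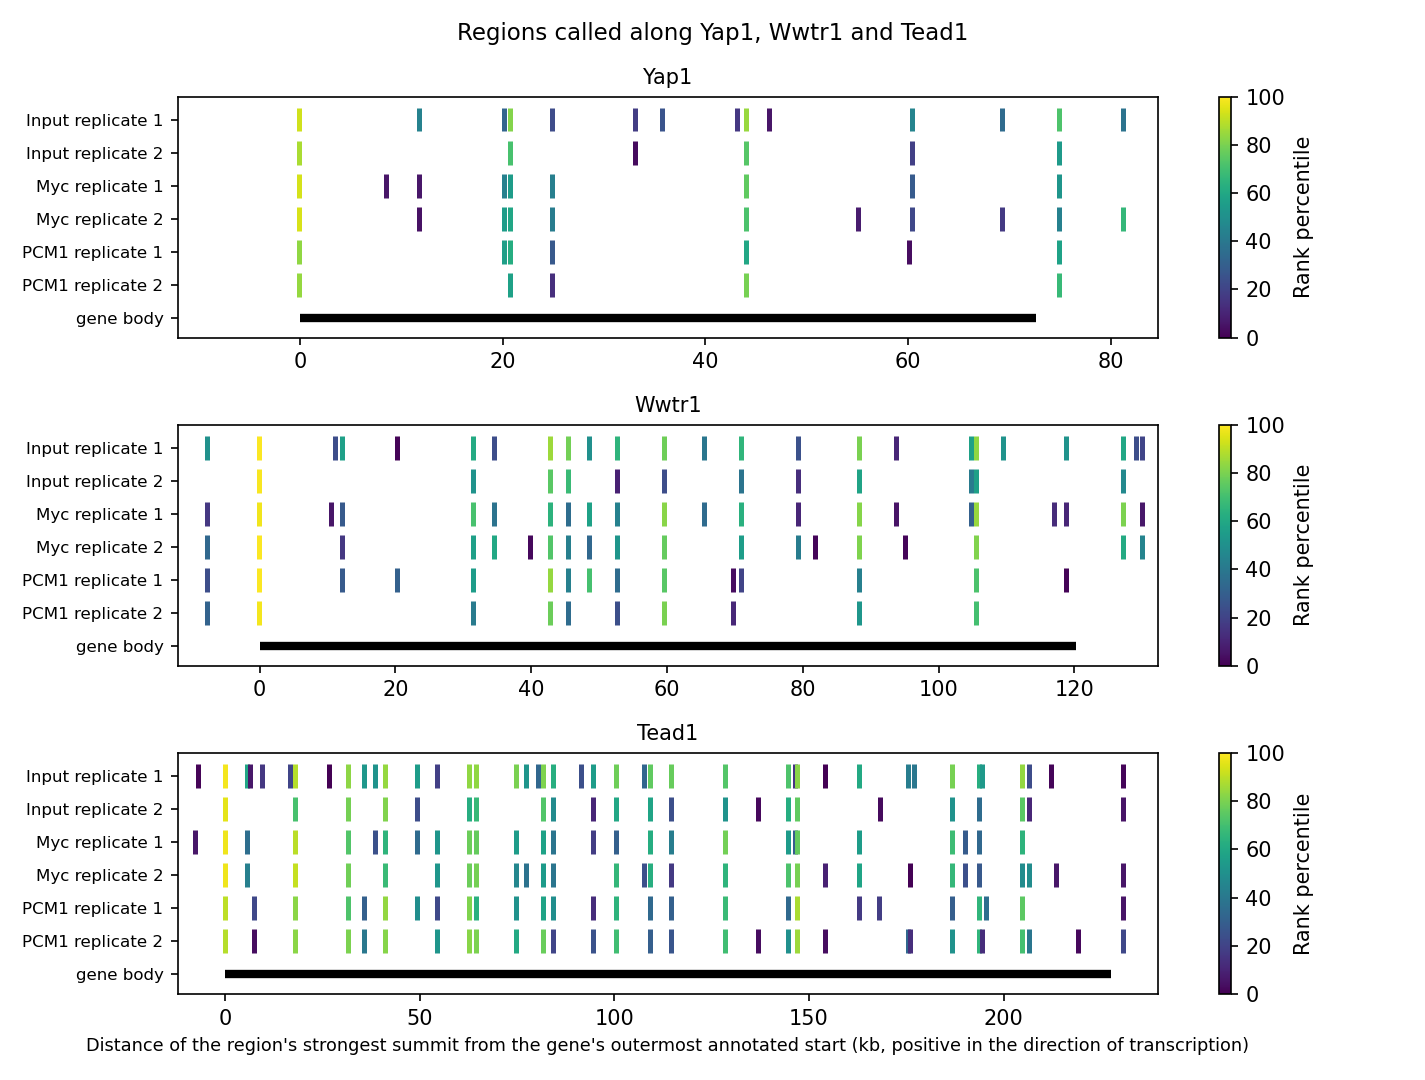
Regions called in each library (rows) along Yap1, Wwtr1 and Tead1, by the distance of their strongest summit from the gene start (kb, horizontal). Each tick is 1 region, coloured by its rank percentile in that library from 0 (dark) to 100 (light), and the black bar is the gene body. The promoters at 0 are the lightest ticks in every row, and Input replicate 1 has the most ticks.

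Regions called in a single group were few and weak. Both Input libraries alone had a peak at Yap1 +33.1 kb, chr9:7971198-7971600, at 17.8 and 3.0 (1 region, against 1.08% of the series). Both Myc libraries alone had one at Tead1 +189.9 kb, chr7:112869096-112869379, at 28.7 and 24.3 (1 region, against 1.84%). Both PCM1 libraries alone had one at Wwtr1 +69.7 kb, chr3:57506099-57506486, at 3.5 and 10.9, and one at Tead1 +7.6 kb, chr7:112686703-112687090, at 21.7 and 3.5 (2 regions, against 0.254%). All 4 were intronic. Under the equal number the counts of 130 regions were 1 for Input, 2 for Myc and 0 for PCM1, with no share over all regions given.

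Without Input replicate 2, the regions of Input alone numbered 24 in place of 1, and they numbered 3 without Input replicate 1 or Myc replicate 1. Those of Myc alone numbered 14 without Myc replicate 1, 7 without Myc replicate 2 and 9 without Input replicate 1. Those of PCM1 alone numbered 7 without either PCM1 replicate. These counts rested on both libraries of a group having a peak, and no share over all regions is given with a library left out.

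Regions missing from PCM1 were more numerous than those missing from another group, here as in the whole series, and near the share of the series. Regions called in all 4 Input and Myc libraries and in neither PCM1 library numbered 5, against 2.26% of the series (2.79% here). The strongest was downstream of Wwtr1, chr3:57448470-57448837 at +127.2 kb, at 59.4, 46.9, 80.1 and 60.9 in Input and Myc. An intron of Stk3 at +274.2 kb, chr15:34904572-34904917, had 44.8, 34.1, 24.8 and 61.5, and one of Yap1 at +60.4 kb, chr9:7943769-7944396, had 45.1, 19.0, 28.4 and 21.6. PCM1 replicate 1 had a separate peak right beside the Yap1 region, at +60.1 kb and percentile 3.3, so the absence there depends on where the peak was drawn. The remaining 2, named after their values were seen, were at Wwtr1 +79.3 kb and 2.3 kb upstream of Lats2. No region was missing from Input alone (0.104%) or Myc alone (0.268%) in this way. The PCM1 libraries had the lowest genome-wide backgrounds, 0.977 and 0.903 against 1.02 to 3.96 in the others, and the part of depth in these 5 regions was not tested.

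Other genes of the pathway were counted in the same way. Of 24 upstream and core genes outside the 10, which include Stk4, Nf2, Mob1a and the Vgll cofactors, 21 had a promoter peak in all 6 libraries and 24 in at least 1. Both Myc libraries were above the other 4 at 5 of them and both PCM1 libraries below at 6, counts to be read beside the 27.3% and 30.1% of all genes. Nf2, which encodes the upstream regulator merlin, stood between 99.4 and 99.9. Vgll2, Dchs1 and Wwc1 were the 3 without a peak in all 6, with mean percentiles of 9.9, 15.3 and 37.4, lower than the mean of any of the 10 genes.

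Of 12 genes known as targets of YAP1, TAZ and TEAD, one of which (Ptpn14) is also in the upstream list, 12 had a promoter peak in all 6 libraries. Both PCM1 libraries were below the other 4 at 3, Ccn1, Myc and Crim1, a share no higher than the 30.1% of all genes. Both Myc libraries were below at 2, Dlc1 and Ptpn14 (4.23% of all genes), and above at 1, Ccn2 (27.3%). Both Input libraries were above at 1, Dlc1 (4.94%). With the equal number, Myc was below at 3 of the 12 (9.74% of all genes). Ccn1, the matricellular target gene also named Cyr61, stood at 89.2, 79.9, 88.6, 88.8, 75.6 and 68.7. Ankrd1, a target gene and also expressed in cardiomyocytes, stood at 92.3, 88.1, 87.2, 88.6, 86.1 and 90.5, with no group apart over all peaks, and with both Myc libraries below the other 4 under the equal number, at 81.7 and 83.6 against 84.7 to 89.7.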

How the data were processed

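OMNI-ATAC-Seq libraries of 3 groups (Input, Myc and PCM1, 2 biological replicates each) were grouped by their titles. By the account of the authors, reads were trimmed (fastq-mcf), aligned to mm10 by Bowtie2 2.3.3.1 and marked for duplicates by Picard 2.2.1. They removed blacklisted regions with bedtools 2.7.1, shifted alignments for the transposase, and called peaks in each library separately with MACS2 2.1.0.20160309 at a q-value of 0.05. The deposited lists hold, for each peak, the authors' fold enrichment (a ratio of summit pileup to local background), −log10 p-value, −log10 q-value and a score derived from the q-value. They were used to rank peaks within a list and never averaged as levels. No counts or coverage were used. A peak caller's threshold and depth decide what appears as present.

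Pileup and background at a summit were solved from the fold and p-value, and 98.3 to 100% of pileups came out whole within 0.02. Values with a p-value too small to solve were left blank. The background value that recurred most often in a library served as its depth.

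Genes, TSSs and exons were taken from GENCODE M21. No peak ran past a chromosome end of the reference used, and 11 RefSeq promoter entries of 7 of the 10 genes were identical to its sequence at the stated positions. A promoter was 1 kb on either side of any annotated TSS of the gene. For each gene the strongest promoter region and the strongest distal region are named, and for each group up to 3 regions that it alone had or lacked, by rank in the weakest library. The 10 genes, the pathway lists and the 5 marker lists of 12 genes were chosen with earlier results of these data known. Every gene in the lists was found. The sequence of 1 promoter is not reported here.

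Groups were compared by counting features whose 2 libraries lay above or below the other 4. The alternatives were a q-value threshold of 0.01, the strongest 75336 peaks of each library, 2 kb in place of 10 kb, summits extended by 100 bp, promoters of 200 bp, ranks by fold, a replicate block, a motif window of 200 bp, and each library left out in turn. Computations were made in Python 3.11.15 with numpy 2.4.6, pandas 2.3.3, scipy 1.17.1 and pysam 0.24.0, drawn with matplotlib 3.10.9, and tested on simulated data.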

Additional observations from a re-analysis of the deposited data

How the results depend on the processing

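Of 90 recalculations of 19 results, leave-out fits apart, 65 stayed within 1.5 times the original count or within its spread and 25 moved. For shares the spread was a binomial interval that treats regions as independent, which they are not. None of the 17 moved at a q-value of 0.01, where few peaks were lost. All 17 values were identical to the original and the regions still numbered 179, so this setting tested little. None of the 7 moved with promoters of 200 bp. With the equal number of peaks, the share of regions in all 6 libraries was 40.8%, regions of Myc alone numbered 2 and of PCM1 alone 0, Input was above at 8 and below at 5 regions, PCM1 above at 11 and below at 9, and Myc below at 19. At promoters the same ranking gave 1 for Input above, 2 for Myc below and 2 for PCM1 above. With 2 kb on either side, Myc was above at 9 of 158 regions. Extended summits gave 196 regions, of which 2 were of Myc alone and 1 of PCM1 alone, with PCM1 above at 3 and Input below at 2. Ranked by fold, Input was above at 9 regions and Myc below at 13, and at promoters Myc was above at 1 and below at 3 and PCM1 above at 1. No share over all regions or genes is given for these settings, and a change in the number of regions changes the counts too. In a window of 200 bases, 20.1% of the regions held the TEAD motif (14.95% of the series).

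Replicate numbers 1 and 2 do not mark a shared batch in the labels, and differences between replicates did not move together between groups over all regions (r of -0.0114 for Input and Myc, 0.00563 for Input and PCM1 and 0.00312 for Myc and PCM1). Over the 179 regions of the 10 genes r was 0.101, 0.0508 and 0.2017. The replicate block, in which a group had to exceed both others within each number, gave 10 regions with Input above, 2 with Input below and 5 promoters with PCM1 below, and moved none of the other 9 results. The block is an easier condition to meet, and no share over all regions or genes is given for it.

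When each library was left out in turn, the share in all 6 libraries was 33.1 to 36.5%, peaks per 10 kb were 0.919 to 1.07 and the motif share was 28.2 to 29.1%. Regions of 1 group alone ranged from 1 to 24 for Input, 1 to 14 for Myc and 2 to 7 for PCM1. Regions above ranged from 6 to 92 for Input, 15 to 41 for Myc and 5 to 16 for PCM1, and regions below from 1 to 23, 7 to 14 and 15 to 38. Promoters above ranged from 0 to 5 for Input, 3 to 6 for Myc and 0 to 2 for PCM1, and promoters below from 0 to 2, 1 to 2 and 3 to 6. The highest Input counts above, 92 regions and 5 promoters, came without Input replicate 2, and the highest counts below, 23 and 2, without Input replicate 1. A group left with 1 library meets the condition more easily, and no shares over all regions or genes are given for these settings. With 5 libraries the sign-flip test of pairs cannot reach 0.05, so its count was not repeated, and at most 1 of the 45 differences changed sign. Libraries differed in depth, so a missing peak does not show that a site was closed.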
